A study of Mus musculus with 34 samples.

Results

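The genes described here encode the matrix metalloproteinases (MMP), the ADAM proteins, the secreted ADAMTS proteases, the ADAMTS-like proteins (ADAMTSL) and the tissue inhibitors of metalloproteinases (TIMP). Most ADAM proteins are membrane-anchored, and not every one is an active protease. They were taken by symbol from the table of MOSJ-Dkk1 cultures, which lists 37 of them among 16576 genes: 11 MMP, 11 ADAM, 9 ADAMTS, 3 ADAMTSL and 3 TIMP genes. Of the 37, 21 are also listed in the tumour table, together with 22 further genes of the same families that the culture table does not list. The rule is on symbols and uses no measured value, though the families were picked with earlier results of these data known.

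MOSJ-Dkk1 is a murine osteochondral sarcoma line that carries a red fluorescent label and a lentiviral cassette in which the cytomegalovirus promoter drives human Dkk-1, a secreted antagonist of Wnt signalling. All cultures and tumours carried this cassette, so every control did too, and no vector-only cells were analysed here. Cultures were grown to the logarithmic phase (6 days) or brought to nutritional stress (48 h of confluence, with no change of media for 4 days). In each condition they received no morpholino (NT), 5 µM DkkMo, a morpholino directed against the human Dkk-1 transcript, or 5 µM scrMo, its control with mismatched bases, in 3 libraries per group. Dose and times are those of the labels, which also put collection after one week of treatment; the study's own accounts of these cultures differ from the labels in dose and time. Tumours of the same cells grew in NU/J nude mice, which lack mature T cells, and came from mice given saline (NT), DkkMo, doxorubicin (DRB) or DRB with DkkMo (Combination), with 4 tumours per group; the ages of the mice were not used here. Tumour and stroma were dissected together after fixation in formaldehyde, so mouse tumour cells and mouse host cells cannot be told apart, nor can fewer cells of a type be told apart from less RNA per cell. The transcript that DkkMo binds is human and is not in the mouse annotation, so it could not be used to check the labels.

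MMPs are zinc proteases made as inactive precursors. Between them they cleave collagens, gelatin, proteoglycans and other proteases, and several are used by osteoblasts, osteoclasts and chondrocytes to remodel bone and cartilage matrix. ADAM proteases mostly shed the outer part of membrane proteins such as growth factor precursors and Notch receptors, ADAMTS proteases process procollagen, versican and aggrecan, and the ADAMTSL proteins lack the protease domain and bind fibrillin-rich matrix. The TIMPs bind the active site of MMPs, Timp3 also inhibits ADAM and ADAMTS proteases, and Timp2 together with Mmp14 activates the Mmp2 precursor at the cell surface.

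The values below are normalized counts, that is reads per gene divided by a size factor for each library. Between 25.9 and 44.8 M reads (M, mega) lay on listed genes in each culture. Runx2, the transcription factor of the osteoblast lineage, was between 1736 and 5718 in all 18 cultures. None of 8 neutrophil markers was listed and the leukocyte marker Ptprc was at 1.04 to 20.3, but the macrophage markers Csf1r and Cd68 were at 414 to 782 and 391 to 1551 and the endothelial marker Pecam1 at 269 to 426. Alpl and Bglap, markers of maturing osteoblasts, stayed at 7.02 to 24.4 and 2.25 to 43.9 normalized counts. The titles of 2 Stress NT libraries share a number, but their counts differed by more than sampling noise, and each result that uses them was also computed with their mean as 1 library. Nothing in the labels says that libraries of a group came from separate cultures, so p values measure the spread between these libraries.

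Promoters are shown for 3 genes whose RefSeq promoter window, of 250 bases before to 50 bases after the start, held the AP-1 motif TGANTCA on either strand. Mmp13 is among them, the gene with the largest change between DkkMo and scrMo in log phase, as are Mmp10, which lies on the same stretch of chromosome 9 beyond Mmp3, and Adam19, the gene that rose with scrMo against NT. The windows of 23 of the 37 genes were in the table. The AP-1 motif was in 11.5% of the 26 windows of these genes and in 7.81% of all 32851 windows. The RUNX motif TGTGGTT was in the Mmp13 window, which made 3.85% of the windows of these genes against 5.27% of all, and the TCF/LEF motif CTTTGAT was in none of them against 3.73% of all. The motifs do not overlap each other in these windows. The 250 bases before each start follow, 5′ to 3′, from RefSeq on GRCm38.p6, with motif letters in capitals. In Mmp13 (chr9:7272264-7272513, plus strand) the AP-1 match begins 35 bases before the start and the RUNX match, read on the other strand, begins 119 bases before it. In Mmp10 (chr9:7502092-7502341, plus strand) the AP-1 match begins 63 bases before the start, and in Adam19 (chr11:46055734-46055983, plus strand) 131 bases before it. A match of letters does not show that a factor binds there.
Mmp13: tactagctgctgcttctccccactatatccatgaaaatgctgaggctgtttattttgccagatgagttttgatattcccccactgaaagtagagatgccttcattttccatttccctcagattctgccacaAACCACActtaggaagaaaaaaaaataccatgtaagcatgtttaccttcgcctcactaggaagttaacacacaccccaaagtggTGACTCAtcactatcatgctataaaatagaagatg
Mmp10: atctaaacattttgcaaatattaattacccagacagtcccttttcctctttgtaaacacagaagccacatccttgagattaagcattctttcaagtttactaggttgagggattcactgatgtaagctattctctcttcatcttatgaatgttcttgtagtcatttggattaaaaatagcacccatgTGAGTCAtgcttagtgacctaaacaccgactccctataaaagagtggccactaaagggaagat
Adam19: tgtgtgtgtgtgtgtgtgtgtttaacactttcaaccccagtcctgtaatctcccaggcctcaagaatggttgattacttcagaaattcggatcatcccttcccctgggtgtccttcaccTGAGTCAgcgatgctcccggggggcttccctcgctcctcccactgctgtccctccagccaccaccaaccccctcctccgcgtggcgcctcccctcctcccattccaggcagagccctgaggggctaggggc

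In untreated log-phase cultures the inhibitors Timp2 and Timp1 were the most abundant of the 37 transcripts per kb. Levels between genes are compared here as normalized counts per kb of exon, averaged over 3 libraries. Timp2 (chr11:118301069-118355740) was at 11564 per kb, which is 45.2% of the sum over the 37 genes, and Timp1, which inhibits most MMPs, followed at 2967. Timp3 (chr10:86300372-86349506), an inhibitor held in the matrix, was at 417. Timp2 lay at percentile 99.2 of all listed genes in log-phase NT cultures and at 95.4 in stressed NT cultures, and it was the most abundant of the 37 in all 6 culture groups.

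The highest MMPs in log-phase NT cultures were Mmp2, a gelatinase, at 1368 per kb, Mmp11, a furin-activated MMP with few matrix substrates, at 1280, Mmp14, the membrane-bound activator of Mmp2, at 863, and Mmp19 at 800. Mmp13, the main collagenase of rodent bone, was at 545 and Mmp9, the other gelatinase, at 92.8. Among the ADAM genes, Adam9 was at 1000, Adam10, the principal sheddase of Notch receptors, at 775, Adam15 at 557, and Adam17, the sheddase of tumour necrosis factor, at 338. Adam8 was at 294 and Adam19 at 59.1. Adam4, Adam11, Adam22, Adam32, Adam33 and Mmp17 were all at 5.27 or below.

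The ADAMTS family was lower, led by Adamts7 at 390 per kb, Adamts14, a procollagen N-propeptidase, at 299, Adamts1 at 132 and Adamts10 at 84.3. The aggrecan-cleaving Adamts4 and Adamts5 were at 57.6 and 32.5. Of the ADAMTSL genes, Adamtsl5 was at 520, Adamtsl4 at 475 and Adamtsl3 at 136. The lowest member was Adamts9, at 0.386 per kb in log-phase NT cultures, with 3.56 to 9.42 normalized counts per library. Mmp3, Adam12 and Adamts2 are not in the culture table and were not analysed there. The plot of levels sets Timp2 and Adamts9 at its ends.

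**Figure D1:**
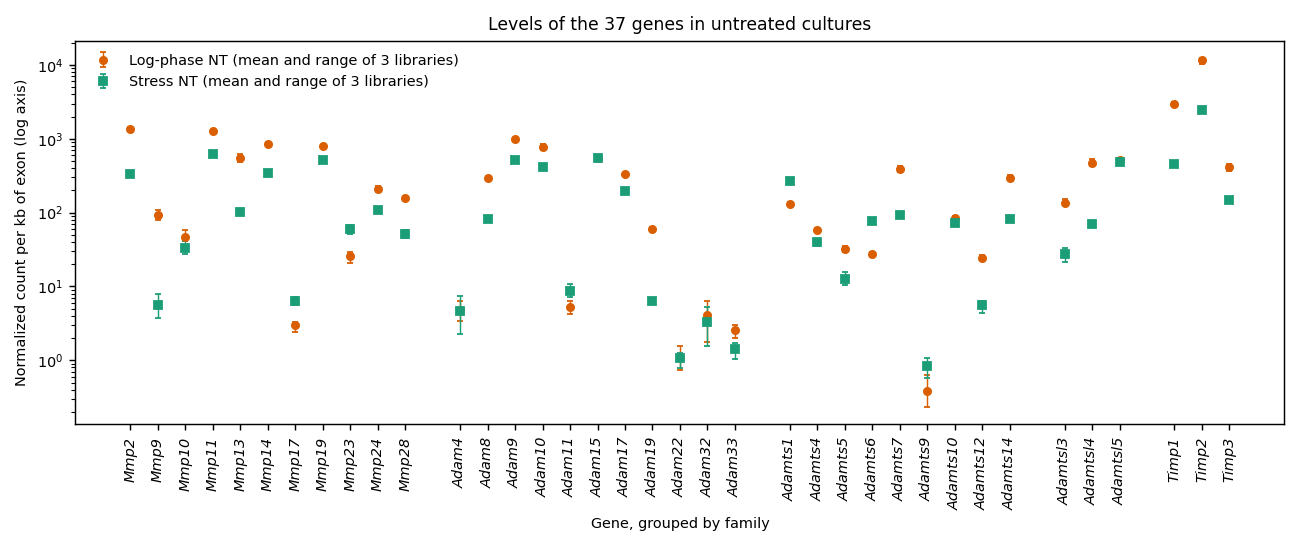
Normalized counts per kb of exon (log axis) of the 37 genes, grouped by family, in NT cultures of both conditions; points are means and bars the range of 3 libraries. Timp2 is highest in both conditions, at 11564 and 2439, and Adamts9 lowest, at 0.386 and 0.849.

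The median coefficient of variation over the 37 genes was 8.50% in log-phase NT cultures, 14.8% with DkkMo and 16.0% with scrMo in log phase, and 5.70% to 6.92% in the groups under nutritional stress. Between 9 and 12 of the 37 genes, depending on the group, had a mean below 100 normalized counts. Strand use in counting is not given in the sources used here, and 21.3% of the exon bases of Timp3, 22.3% of Mmp19 and 20.6% of Adam15 lie under exons of a gene on the opposite strand, so reads of these pairs cannot be told apart.

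In log phase, 5 of the 37 genes were higher with DkkMo than with scrMo and none was lower. A gene was called when its Benjamini-Hochberg adjusted p from limma was below 0.05 and its change over 1.5-fold; 1.97% of all 16562 genes tested were called in this comparison, 1.66% higher and 0.308% lower. The 5 were the collagenase Mmp13, the gelatinase Mmp2, its activator Mmp14, and the inhibitors Timp2 and Timp3. Without the fold threshold, 17 of the 37 genes were higher and 4 lower, against 14.3% and 9.20% of all genes. The median log2 fold change was 0.14 over the 37 genes and 0.00 over all genes.

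Mmp13 (chr9:7272514-7283331) was at 778, 1107 and 991 normalized counts in the DkkMo cultures and at 362, 251 and 378 in the scrMo cultures. NT cultures were at 1643, 1292 and 1435, so the groups did not overlap and the DkkMo cultures lay between the other groups. The log2 fold change of DkkMo against scrMo was 1.07 ± 0.10 (SE; adjusted p = 9.61e-07, limma), and the ratio of mean counts was 2.90. For scrMo against NT it was −1.57 ± 0.10 (adjusted p = 2.23e-09), and for DkkMo against NT −0.50 ± 0.10 (adjusted p = 0.00347), under the fold threshold.

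Mmp2 (chr8:92827291-92853420) was at 3670, 4970 and 3556 normalized counts with DkkMo and at 2711, 1845 and 2311 with scrMo, while NT cultures were at 4557, 4482 and 4800. All DkkMo cultures were above all scrMo cultures, and 1 of them was above the NT cultures. The log2 fold change of DkkMo against scrMo was 0.76 ± 0.10 (adjusted p = 4.27e-05, limma). Its activator Mmp14 (chr14:54431612-54445364) was at 5549, 7209 and 5191 with DkkMo, at 4213, 3432 and 3623 with scrMo and at 4877, 5334 and 5220 in NT cultures. The DkkMo and scrMo cultures did not overlap, and the change was 0.62 ± 0.09 (adjusted p = 4.09e-05). This call depended on single libraries: the change was 0.49 without DkkMo replicate 2 and 0.57 without scrMo replicate 2, both under the fold threshold.

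The inhibitors Timp2 and Timp3 were higher with DkkMo than with scrMo as well. Timp2 was at 38818, 47872 and 36705 normalized counts with DkkMo, at 27048, 18540 and 24133 with scrMo and at 40386, 46572 and 48203 in NT cultures. DkkMo and scrMo cultures did not overlap, whereas DkkMo and NT cultures did, and the log2 fold change of DkkMo against scrMo was 0.82 ± 0.11 (adjusted p = 2.97e-05, limma). Timp3 was at 4172, 4565 and 4473 with DkkMo, at 2221, 1695 and 2300 with scrMo and at 3021, 3439 and 3721 in NT cultures. All DkkMo cultures lay above all others, with a change of 1.00 ± 0.08 against scrMo (adjusted p = 3.89e-07) and of 0.35 ± 0.08 against NT (adjusted p = 0.0102). Timp1 overlapped between the groups, at 2537 to 3158 with DkkMo and 1567 to 2792 with scrMo (0.41, adjusted p = 0.0178).

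**Figure D2:**
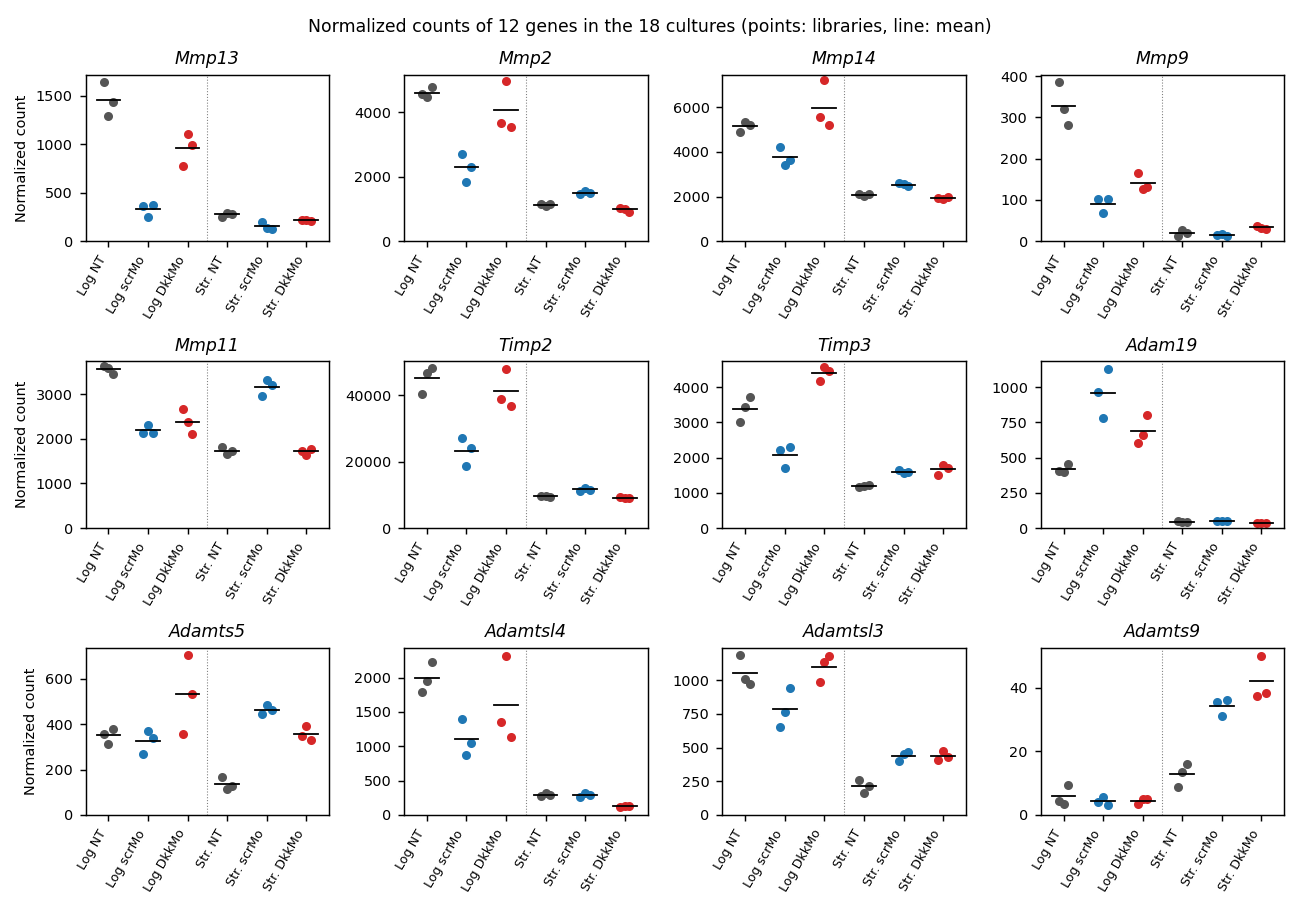
Normalized counts (linear axes from 0) of 12 genes in the 18 cultures, with 1 point per library and a line at the group mean; Log and Str. are log phase and nutritional stress. In log phase, Mmp13, Mmp2, Timp2 and Timp3 are lower with scrMo (blue) than with DkkMo (red) in every library, and all 4 are lower in every stressed library than in log-phase NT cultures (grey).

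Sheddase genes changed less. Adam17 (0.43, adjusted p = 3.43e-05), Adam9 (0.39, adjusted p = 0.00202), Adam10 (0.30, adjusted p = 0.0202) and Adam15 (0.24, adjusted p = 0.0117) were higher with DkkMo than with scrMo in log phase by limma, all under 1.5-fold. Adam8, a sheddase best known from leukocytes, was at 1320, 1245 and 1269 normalized counts with DkkMo and 2007, 1589 and 2136 with scrMo. The groups did not overlap and the log2 fold change was −0.49 ± 0.07 (adjusted p = 6.87e-05), and NT cultures were at 1344, 1334 and 1412. Groups did not overlap between DkkMo and scrMo for 15 of the 37 genes (40.5%), against 26.9% of all genes.

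The scrambled morpholino itself went with changes in log phase. Against NT, 8 of the 37 genes were called, 1 higher and 7 lower, where 2.45% of all genes were called, 0.592% higher and 1.85% lower. The 7 that fell were Mmp13, Mmp2, Mmp9, Mmp11, Adamtsl4, Timp2 and Timp3, and the gene that rose was Adam19. Without the fold threshold 2 were higher and 19 lower, against 11.8% and 14.6% of all genes (26.4% in all), and groups did not overlap for 22 of the 37 (59.5%), against 37.8%. The fall of Timp3 (−0.65) rested on scrMo replicate 2, without which it was −0.53, under the fold threshold. Over the 37 genes the median log2 fold change was −0.26, against −0.00 over all genes. DkkMo against scrMo and scrMo against NT share the scrMo cultures, so both cannot be read as independent.

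Mmp9 (chr2:164940780-164955850) was at 385, 319 and 281 normalized counts in NT cultures, at 102, 67.5 and 102 with scrMo and at 165, 127 and 131 with DkkMo. The 3 groups did not overlap. It was the only gene of the 37 called between DkkMo and NT in log phase (−0.63 ± 0.07, adjusted p = 1.70e-05, limma), where 0.827% of all genes were called, 0.314% lower, and without NT replicate 1 the change was −0.56, under the fold threshold. On the adjusted p alone 10 genes passed in that comparison, 4 higher and 6 lower, against 9.81% of all genes, 5.36% higher and 4.46% lower, and 12 of the 37 (32.4%) did not overlap, against 24.1%. Leaving out DkkMo replicate 1 added Mmp11 to the calls, and leaving out DkkMo replicate 2 added Mmp13, so the count went from 1 to 2. Adam19 (chr11:46055992-46147343) moved the other way, at 408, 400 and 452 in NT cultures, 601, 660 and 805 with DkkMo and 964, 781 and 1128 with scrMo. Its highest DkkMo library was just above its lowest scrMo library, and its change with scrMo against NT was 0.85 ± 0.08 (adjusted p = 4.84e-07).

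Mmp11 (chr10:75923222-75936496) was at 3637, 3589 and 3445 normalized counts in NT cultures, and both morpholino groups lay below, at 2134 to 2313 with scrMo and 2101 to 2667 with DkkMo. The change with scrMo was −0.63 ± 0.06 (adjusted p = 8.53e-07) and that with DkkMo −0.53 ± 0.06 (adjusted p = 3.04e-05, under the fold threshold). Adamtsl4 fell with scrMo by 0.74 on the log2 scale (adjusted p = 0.00160), with counts of 1798, 1959 and 2231 in NT cultures and 1396, 866 and 1041 with scrMo. Its DkkMo cultures were scattered, at 1351, 2319 and 1140.

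**Figure D3:**
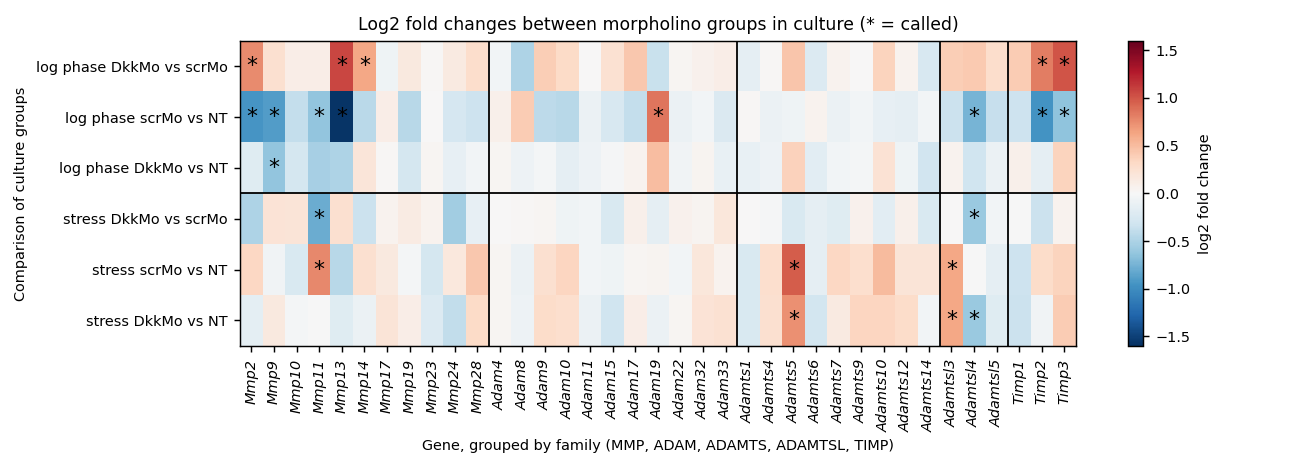
Log2 fold changes (colour, red higher and blue lower) of the 37 genes in 6 comparisons of morpholino groups, in log phase (top) and under nutritional stress (bottom); a star marks an adjusted p below 0.05 with a change over 1.5-fold. In log phase DkkMo against scrMo has 5 stars, all red, and scrMo against NT has 8, of which 7 are blue.

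Under nutritional stress the same morpholinos gave another set of calls. DkkMo was lower than scrMo for 2 of the 37 genes and higher for none, with 1.00% of all genes called, 0.513% higher and 0.489% lower. Without the fold threshold 4 genes were higher and 8 lower, against 9.97% and 10.9% of all genes (20.9% in all). Groups did not overlap for 21 of the 37 (56.8%), against 44.9%. Mmp11 was at 1724, 1645 and 1781 normalized counts with DkkMo and at 2966, 3330 and 3202 with scrMo, while NT cultures were at 1814, 1662 and 1732. The scrMo cultures stood apart from both other groups, with a log2 fold change of −0.79 ± 0.06 for DkkMo against scrMo (adjusted p = 7.09e-08, limma) and 0.77 ± 0.06 for scrMo against NT (adjusted p = 2.35e-08).

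Adamtsl4 (chr3:95676201-95687917) was at 121, 125 and 136 with DkkMo, 267, 317 and 284 with scrMo and 272, 317 and 292 in NT cultures. Here the DkkMo cultures stood apart, below all others. The change was −0.59 ± 0.16 against scrMo (adjusted p = 0.0108) and −0.60 ± 0.16 against NT (adjusted p = 0.00451), close to the fold threshold, and it fell under it without DkkMo replicate 1 (−0.57), DkkMo replicate 2 (−0.58) or scrMo replicate 2 (−0.55) in the first and without NT replicate 2 (−0.57) in the second. The variance-stabilised scale understates changes at such counts, and the ratio of mean counts was 0.439 against scrMo and 0.433 against NT.

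Against NT under stress, 3 of the 37 genes were higher with scrMo and none was lower, with 4.43% of all genes called, 1.90% higher and 2.54% lower. With DkkMo 2 were higher and 1 lower, with 2.66% called, 1.12% higher and 1.54% lower. On the adjusted p alone 18 were higher and 5 lower with scrMo (46.8% of all genes, 22.1% higher and 24.7% lower), and 13 higher and 7 lower with DkkMo (41.7%, 19.0% higher and 22.7% lower). Groups did not overlap for 27 of the 37 with scrMo, against 63.5% of all genes, and for 30 with DkkMo, against 59.4%. Both comparisons share the NT cultures. Adamts5 (chr16:85856173-85901828), an aggrecanase of cartilage, was at 167, 114 and 127 in NT cultures, 443, 486 and 462 with scrMo and 347, 390 and 330 with DkkMo. Both morpholino groups lay above NT, by 0.97 ± 0.11 (adjusted p = 1.55e-06) with scrMo and 0.73 ± 0.11 (adjusted p = 5.89e-05) with DkkMo. Adamtsl3 (chr7:82335694-82614450) was at 256, 164 and 212 in NT cultures, 397, 452 and 468 with scrMo and 411, 473 and 432 with DkkMo, a change of 0.62 ± 0.10 in each comparison that fell to 0.54 without NT replicate 2.

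Adamts9, a versican-cleaving protease, had few reads but also separated NT from the morpholino cultures under stress. It was at 8.73, 13.5 and 16.1 normalized counts in NT cultures, 35.6, 31.2 and 36.0 with scrMo and 37.5, 50.0 and 38.4 with DkkMo. Neither morpholino group overlapped NT. The changes on the variance-stabilised scale were 0.27 (adjusted p = 1.30e-04) and 0.34 (adjusted p = 1.71e-05), under the fold threshold, while the ratios of mean counts were 2.68 and 3.29. It was called in both comparisons when the log2 was taken of normalized counts with 1 added, and in the test of the recovered reads.

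The difference between DkkMo and scrMo was not the same in the 2 culture conditions. Tested as an interaction, 9 of the 37 genes were called, all with a smaller or more negative difference under stress than in log phase, where 3.70% of all genes were called, 2.83% in that direction. They were Mmp2 (−1.25 ± 0.15, adjusted p = 1.16e-05, limma), Timp2 (−1.17 ± 0.15, adjusted p = 3.30e-05), Adamtsl4 (−1.01), Mmp14 (−0.97), Timp3 (−0.95), Mmp11 (−0.89), Mmp13 (−0.82), Mmp24 (−0.70) and Adamts5 (−0.68). The median over the 37 genes was −0.23, against −0.01 over all genes. Under stress, Mmp13 still had a higher mean with DkkMo than with scrMo (80.6 and 56.8 per kb), and so did Timp3 (205 and 195). The other genes called in the interaction had lower means with DkkMo. Mmp2 was among them, at 1036, 1007 and 920 normalized counts with DkkMo and 1453, 1551 and 1502 with scrMo under stress. These did not overlap, and DkkMo lay below scrMo rather than above it (−0.50, adjusted p = 0.00196). Mmp24, a membrane-bound MMP, was at 344, 319 and 324 with DkkMo and 565, 608 and 608 with scrMo under stress, again without overlap, and 1006, 994 and 672 against 963, 686 and 700 in log phase, where the groups overlapped. The call of Adamts5 was lost without log-phase DkkMo replicate 2 (−0.52).

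Between nutritional stress and log phase most of the genes called were lower under stress. In NT cultures 23 of the 37 genes were called, 2 higher and 21 lower, where 18.1% of all genes were called, 8.22% higher and 9.90% lower. On the adjusted p alone 6 were higher and 25 lower, against 31.5% and 34.1% of all genes (65.6% in all). The 21 comprised 7 of 11 MMP, 5 of 11 ADAM, 4 of 9 ADAMTS, 2 of 3 ADAMTSL and all 3 TIMP genes. The median log2 fold change was −0.72 over the 37 genes and −0.01 over all genes. With scrMo 10 genes were called, 1 higher and 9 lower (10.7% of all genes, 4.38% higher and 6.28% lower), and the median was −0.16. On the adjusted p alone the scrMo cultures had 12 higher and 18 lower (58.8% of all genes, 28.0% higher and 30.8% lower), and with counts on the log2 scale with 1 added, or in the test of the recovered reads, 8 higher and 12 lower were called, so the excess of falls was smaller there. With DkkMo 18 genes were called, 2 higher and 16 lower (16.5% of all genes, 6.24% higher and 10.2% lower), with a median of −0.41, and 8 higher and 24 lower on the adjusted p alone (65.6%, 30.4% higher and 35.2% lower). With each library centred on its median the splits were 3 higher and 18 lower in NT cultures, where Adam17, Adamts5 and Mmp24 lost their call, 2 and 7 with scrMo, and 4 and 13 with DkkMo.

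All 3 TIMP genes fell in NT cultures. Timp1 (chrX:20870166-20874735) was at 2483, 2638 and 2782 normalized counts in log-phase NT cultures and at 397, 421 and 412 under stress, a log2 fold change of −2.12 ± 0.12 (adjusted p = 1.15e-11, limma). The change was −2.11 with scrMo and −2.53 with DkkMo. Timp2 went from 40386 to 48203 in log-phase NT cultures down to 9263 to 9645 (−2.21 ± 0.11, adjusted p = 1.88e-12), and the change was −2.13 with DkkMo and −0.96 with scrMo. The libraries of the conditions did not overlap in any of these comparisons. Summed per kb, the 3 TIMP genes went from 14948 ± 1263 (SD, n = 3) to 3047 ± 48.7 in NT cultures, the 11 MMP genes from 5397 ± 87.7 to 2192 ± 35.4, and the 11 ADAM genes from 3041 ± 95.7 to 1780 ± 18.6.

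Among the MMPs, Mmp9 went from 281 to 385 normalized counts in log-phase NT cultures to 13.1 to 28.0 under stress (−1.47 ± 0.07, adjusted p = 1.88e-12), a ratio of mean counts of 0.0610. Mmp13 went from 1292 to 1643 down to 253 to 286 (−1.72 ± 0.10, adjusted p = 2.48e-11), and Mmp2 from 4482 to 4800 down to 1104 to 1157 (−1.79 ± 0.10, adjusted p = 1.83e-11). Neither gene overlapped between conditions. With scrMo the fall of Mmp13 was −0.59 ± 0.10, which rested on single libraries: leaving out log-phase replicate 1 or 3 or stress replicate 2 or 3 brought it to −0.52 to −0.55, under the fold threshold. Mmp2 with scrMo went from 1845 to 2711 down to 1453 to 1551 (−0.52, under the threshold).

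Of the ADAM genes, Adam19 fell in all 3 sets of cultures (−1.42 in NT, −2.23 in scrMo and −2.01 in DkkMo cultures), to between 32.7 and 53.2 normalized counts in all 9 stressed cultures. Adam8 also fell in all 3 (−1.36, −1.86 and −1.36). The sheddases Adam9 (−0.87), Adam10 (−0.82) and Adam17 (−0.67) fell in NT cultures, whereas Adam15 was at 3381 to 3456 in log phase and 3265 to 3477 under stress (adjusted p = 0.736). With scrMo none of these 4 passed the fold threshold, and with DkkMo Adam17 did (−0.61; −0.56 without log-phase DkkMo replicate 2 and −0.58 without replicate 3).

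Of the ADAMTS and ADAMTSL genes, Adamtsl4 fell in all 3 sets (−2.05 in NT, −1.33 in scrMo and −2.33 in DkkMo cultures). Adamts7, a protease of cartilage oligomeric matrix protein, did so as well (−1.68, −1.25 and −1.49), as did Adamts14 (−1.43, −1.18 and −1.17). Adamtsl3 (−1.55), Adamts12 (−0.91) and Adamts5 (−0.71) fell in NT cultures. The genes called higher were Adamts1 and Adamts6. Adamts6 was at 194, 220 and 230 normalized counts in log-phase NT cultures and 582, 601 and 602 under stress (0.90 ± 0.08, adjusted p = 6.32e-09), and rose by 0.70 with scrMo (0.57 without log-phase scrMo replicate 1, under the threshold) and 0.79 with DkkMo. Adamts1, a protease of versican and aggrecan, was at 748, 686 and 667 in log phase and 1498, 1283 and 1462 under stress (0.80 ± 0.10, adjusted p = 5.50e-07).

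Some genes with few reads were higher under stress too, by changes that this scale compresses under the fold threshold. Adamts9 was at 4.08, 5.63 and 3.01 normalized counts in log-phase scrMo cultures and 35.6, 31.2 and 36.0 under stress, and at 3.33, 4.97 and 5.09 and then 37.5, 50.0 and 38.4 with DkkMo. Neither set overlapped between conditions. The ratios of mean counts were 8.09 and 9.42, above those of Adamts1 and Adamts6, with changes on the variance-stabilised scale of 0.45 (adjusted p = 1.65e-07, limma) and 0.51 (adjusted p = 1.58e-08). In NT cultures, where the conditions overlapped, the ratio was 2.20 (adjusted p = 0.0132). Adamts9 was called in all 3 sets with 1 added to counts on the log2 scale and in the test of the recovered reads. Mmp17, Mmp23 and the genes named after them here were chosen for mention after their values were seen. Mmp17, a membrane-bound MMP, had ratios of 2.15 in NT, 2.13 in scrMo and 3.23 in DkkMo cultures, and Mmp23 of 2.30, 1.37 and 1.48, all without overlap. On those 2 other scales Mmp17 and Adam11 were called in all 3 sets and Mmp23 in NT cultures. Not all genes with few reads rose. In NT cultures the mean per kb went from 2.54 to 1.41 for Adam33, 4.12 to 3.33 for Adam32 and 4.87 to 4.64 for Adam4. With either morpholino, Adam32 and Adam33 had higher means under stress.

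**Figure D4:**
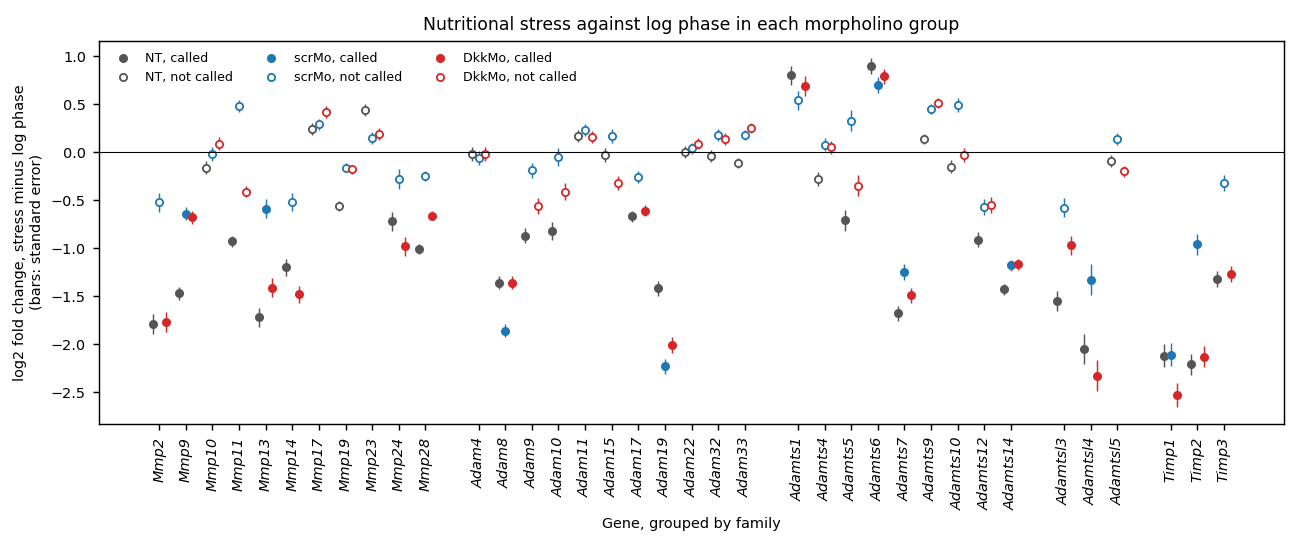
Log2 fold change of nutritional stress against log phase for the 37 genes in NT (grey), scrMo (blue) and DkkMo (red) cultures; bars are standard errors, and filled points passed an adjusted p below 0.05 and 1.5-fold. Most filled points lie below 0, with Timp1 at −2.53 in DkkMo cultures the lowest and Adamts1 and Adamts6 above 0.

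Osteoblast-lineage markers moved with the culture condition: the sum of the 6 that were measured of 9 listed was between 215996 and 246119 normalized counts in log-phase NT cultures and between 73338 and 79712 under stress, with Spp1, at 49248 to 214487, carrying most of it. In log phase it was 106466 to 140543 with scrMo and 165666 to 185244 with DkkMo. The sum of 5 macrophage markers measured of 8 listed was 1099 to 1215 in log-phase NT cultures, 1330 to 1564 with DkkMo and 1559 to 2043 with scrMo, and 2160 to 2452 in the stressed cultures. The sum of 4 fibroblast and stroma markers measured of 6 listed was 13031 to 14654 in log-phase NT cultures and 4375 to 4643 under stress, and that of 3 chondrocyte markers of 5, nearly all of it Sox9, 4772 to 5903 and 8692 to 9269. The part of these lists in the changes of the protease and inhibitor genes was not tested.

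The other genes of the pathway were followed in 5 lists. Of all genes, 1.97% were called between DkkMo and scrMo in log phase, 1.66% higher and 0.308% lower. Between scrMo and NT in log phase it was 2.45%, 0.592% higher and 1.85% lower. In log phase, DkkMo against scrMo, 4 of the 11 measured matrix substrates were called, all higher: Col1a1 (1.29), Col1a2 (1.00) and Col3a1 (1.07), chains of fibrillar collagens, and Thbs1 (1.51), thrombospondin. Of 7 genes of the plasminogen system and its serpins, Plau, the urokinase that activates plasminogen, was called (0.86), and of 12 other matrix proteases Htra3 (0.75). Of 23 substrates shed by ADAM proteases, Cx3cl1 (0.76) and App (0.63) were called, and of 11 other inhibitors and regulators none. Against NT, 7 of the 11 matrix substrates and 5 of the 23 shed substrates were lower with scrMo, and none of either was higher.

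Under nutritional stress, DkkMo against scrMo, 1 of the 23 shed substrates was called, Csf1, the macrophage growth factor, which was lower (−0.88), and none of the 11 matrix substrates was. Of all genes 1.00% were called there, 0.513% higher and 0.489% lower. In the interaction, 6 of the 11 matrix substrates were called, all lower, with Col1a1 at −1.61 and Col1a2 at −1.50. The share of all genes was 3.70%, with 0.869% higher and 2.83% lower. Between stress and log phase in NT cultures, 8 of the 11 matrix substrates were called, 7 of them lower, and 12 of the 23 shed substrates, 4 higher and 8 lower. For all genes it was 18.1%, with 8.22% higher and 9.90% lower.

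In the tumours the table lists 43 genes of these families, 6 MMP, 19 ADAM, 15 ADAMTS, 2 ADAMTSL and 1 TIMP gene. The tumours varied far more than the cultures: the median SD of the 21 genes listed in both tables was 1.16 on the log2 scale in NT tumours, 1.09 with DRB, 0.75 with DkkMo and 0.61 with Combination, against 0.04 to 0.14 in the culture groups. Reads on listed genes were 53.8 to 125 M in NT tumours, 85.3 to 106 M with DRB, 26.9 to 52.1 M with DkkMo and 28.3 to 41.1 M with Combination, so depth moved with the groups, and its part in the results was not tested. The 2 tables were normalized separately, and no level was tested across them.

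Timp2, the most abundant of these transcripts in the cultures, was low in the tumours. It was at 5.99, 2.77, 0 and 8.21 normalized counts in NT tumours, 62.5, 36.6, 17.3 and 10.9 with DkkMo, 401, 928, 482 and 148 with DRB and 8.20, 15.1, 74.6 and 2.86 with Combination. In normalized counts every DRB tumour lay above every other tumour, and NT and DkkMo tumours did not overlap. DRB replicates 1 and 2 had size factors of 0.4613 and 0.4485 at 103.1 and 105.4 M reads. Those with Combination were 0.9753 to 1.401 at 28.3 to 41.1 M reads. The part of the size factors in this separation was not tested. Per kb, Timp2 lay at percentile 0.293 of all listed genes in NT tumours and 21.5 with DRB. Timp2 was the only gene of the 21 called in any tumour comparison: Combination against DRB gave a log2 fold change of −2.21 ± 0.55 (adjusted p = 0.0233, limma), where the median of all genes was −0.71 and 7.35% of all genes were called, 6.92% lower. Groups did not overlap for 3 of the 21 genes (14.3%), Timp2, Adam9 and Adamts6, against 20.4% of all genes. An exact permutation test of the 4 against 4 tumours gave p = 0.0286 (two-sided) for each of these genes, the smallest it can give. Any groups of 4 without overlap give this value, so it adds nothing to the lack of overlap. With DRB replicate 4 left out Adamts6 was called too, and with NT replicate 4 left out Timp2 was called between DRB and NT. The call between Combination and DRB was lost without DRB replicate 1 or Combination replicate 1, 2 or 4, with each library centred on its median (−1.18), and in the test of the recovered reads.

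No gene of the 21 was called between DkkMo and NT, between DRB and NT or in the interaction, and no gene of all 12595 was. Of the 21, Mmp14 (−3.01), Adam17 (−2.73) and Adam22 (−1.57) had the lowest unadjusted p between DkkMo and NT by limma. Their adjusted p were 0.273, 0.322 and 0.322, and the median change of all genes was −0.54. Mmp14 was at 3977, 822, 3101 and 4402 normalized counts in NT tumours, 974, 261, 33.3 and 93.2 with DkkMo, 230, 207, 169 and 138 with DRB and 213, 149, 1256 and 201 with Combination. NT tumours overlapped DkkMo tumours through replicate 2 and did not overlap DRB tumours, with exact two-sided permutation p of 0.0571 and 0.0286.

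Adam8 and Adam9 had their lowest group means with Combination, as did Adam10, Adamts6, Adamts10, Mmp2 and Mmp24. Adam8 was at 930, 0.308, 5.67 and 62198 normalized counts in NT tumours, 161, 236, 0 and 475 with DkkMo, 16556, 2170, 207 and 2994 with DRB and 252, 0.841, 111 and 67.1 with Combination. NT replicate 4 was far above all other tumours, and DRB and Combination overlapped. Adam9 was at 80.2, 1162, 1068 and 77.9 with DRB and 1.03, 1.68, 0.786 and 0.714 with Combination, without overlap. In the fit of all tumours neither was called (−3.71, adjusted p = 0.147, and −2.58, adjusted p = 0.141), and with only these 2 groups in the model both were, while Timp2 was not. The summed counts of 6 macrophage markers measured of 8 listed ran from 9621 to 427228 in NT tumours, 15774 to 229784 with DRB, 12343 to 15639 with DkkMo and 9551 to 11964 with Combination, and their part in these values was not tested.

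Other genes of the 21 had high counts, not divided by exon length, in all 16 tumours. Adamts12 was at 4591 to 33737 normalized counts, Adamtsl3 at 5661 to 44650 and Adam19 at 3938 to 15919, and none of them was called. Per kb, Adamts12 lay at percentile 63.7 of all listed genes in NT tumours and 90.1 with Combination. Adamtsl3 lay at 86.9 and 88.9, and Adam19 at 72.9 and 87.5. Mmp2, at 920 to 4970 in the cultures, had a median of 37.2 and a range of 0 to 2314 in the tumours. Among the 22 genes listed in the tumours only, Adam12, an ADAM of mesenchymal cells, was at 1192 to 10602, Adamts2, a procollagen N-propeptidase, at 71.5 to 1349, and Mmp3 had reads in 7 of 16 tumours. Adam2, Adam5 and Adam29, known from the testis, had medians of 3776, 5502 and 4716, and Mmp20, known from developing enamel, of 8185. The median gene span was 106 kb for the 22 genes, 54.7 kb for the 21 and 40.8 kb for all listed genes. Across the 43 genes, Spearman's rho between mean count and gene span was 0.515 in the tumours (0.436 over 12284 genes), and across the 37 genes in the cultures it was −0.0410 (0.357 over 16209 genes); genes of a table share its libraries.

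**Figure D5:**
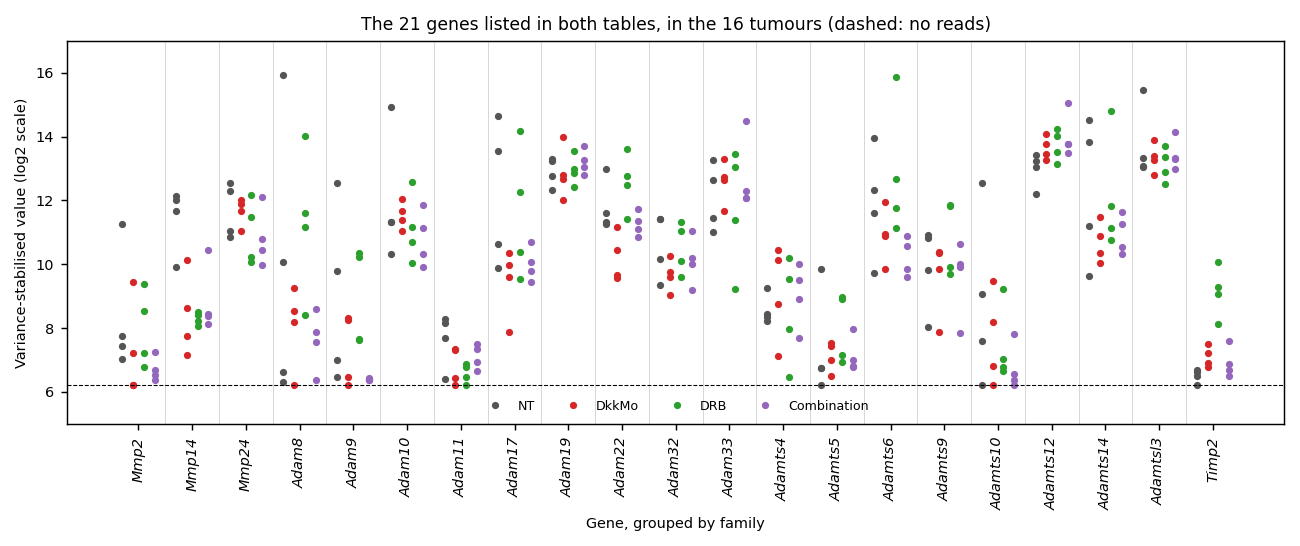
Variance-stabilised values (log2 scale; dashed line, no reads) of the 21 genes listed in both tables in the 16 tumours, with 1 point per tumour in 4 groups. The DRB tumours (green) of Timp2 lie above all others of that gene.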

How the data were processed

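RNA sequencing of 18 MOSJ-Dkk1 cultures (6 groups of 3) and 16 MOSJ-Dkk1 tumours (4 groups of 4) was used, grouped by the deposited labels. The authors aligned reads to GRCm38 with Ensembl release 98 using HISAT2 2.1.0 and counted them with featureCounts of Subread 2.0.0. The deposited values are DESeq2 variance-stabilised values on the log2 scale, transformed separately for cultures and tumours; 7.2 and 6.23 stand for no reads. The rule by which genes were listed is not given in the sources used here. Low-count differences are compressed on this scale, so the transformation was reversed: 99.997% of culture and 99.09% of tumour values gave whole reads within 0.05.

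Group means of the deposited values were compared with limma 3.58.1 in R 4.3.3 (all libraries of a table in a single model, variance trend, Benjamini-Hochberg adjustment over all genes tested). A gene was called at an adjusted p below 0.05 and over 1.5-fold. The interaction was DkkMo minus scrMo under nutritional stress, less the same in log phase, and likewise DkkMo with and without DRB. The 14 culture rows that span more than 6 within a group were set aside, none of them a gene of these families, which left 16562. Exact permutation tests were two-sided and cannot go below 0.1 for 3 against 3 libraries. Exon lengths and gene coordinates are from GENCODE M21 on GRCm38, promoters from RefSeq. Named were genes called between morpholino groups, the largest changes with stress, the most abundant genes of each family, all TIMPs, tumour calls and a list of 17 well-studied genes of these families.

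Genes and lists were chosen with earlier results of these data known. Alternatives were a filter on the mean, normalized counts with 1 added on the log2 scale, centring, a model of the compared groups only, no fold threshold, limma voom on the recovered reads, a replicate block, averaging of the same-numbered Stress NT libraries and leaving out each library. The limma fit was first tried on simulated log2 values with known changes, for DkkMo against scrMo in log phase and Combination against DRB. Python 3.11.15 and matplotlib 3.10.9 made the figures.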

Additional observations from a re-analysis of the deposited data

Results flagged for a closer look

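Tumour libraries of the 21 genes listed in both tables were screened for a value that stood apart from the other 3 of its group. Of 84 sets of a gene and a group, 6 had such a value, where chance gives about 1 in 20. In NT tumours these were the highest values of Adamts5 (9.84 on the log2 scale), Adamtsl3 (15.45) and Mmp2 (11.27). With Combination they were the highest values of Adam33 (14.48) and Mmp14 (10.45), and with DRB that of Adamts10 (9.21).

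The difference between DkkMo and scrMo cultures differed between nutritional stress and log phase for 9 genes by the interaction test of limma (log2, stress minus log phase). The values were −1.25 for Mmp2, −1.17 for Timp2, −1.01 for Adamtsl4, −0.97 for Mmp14, −0.95 for Timp3, −0.89 for Mmp11, −0.82 for Mmp13, −0.70 for Mmp24 and −0.68 for Adamts5.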

How the results depend on the processing

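No call changed direction under any alternative run. Of the 83 calls of a gene in a comparison, 68 were kept by every other alternative with the fold rule that tested the gene. When each library was left out, 71 were kept. The filter on the mean removed some called genes before testing, such as Mmp13 and Mmp9, and these were not counted as lost. Leaving out each library gave 4 to 6 called genes for DkkMo against scrMo in log phase and 1 to 2 under nutritional stress, 7 to 8 and 2 to 3 for scrMo against NT, 0 to 2 and 1 to 3 for DkkMo against NT, 23 to 24, 9 to 14 and 17 to 20 for stress against log phase in NT, scrMo and DkkMo cultures, and 8 to 10 for the interaction. In the tumours it gave 0 to 2 for Combination against DRB, 0 to 1 for DRB against NT, and 0 to 0 otherwise.

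Counts moved by over 1.5 times as follows; the cause was not tested except where fewer genes were tested or the threshold was dropped. With only genes above the median mean, scrMo against NT in log phase had 5, DkkMo against NT in log phase 0, stress against log phase with scrMo 6 and Combination against DRB 0. On the log2 of normalized counts with 1 added, DkkMo against scrMo under stress had 6 (2 higher, 4 lower), scrMo against NT under stress 11 (8 higher, 3 lower), DkkMo against NT 4 in log phase and 10 under stress, stress against log phase with scrMo 20 (8 higher, 12 lower) and Combination against DRB 0. With voom on the recovered reads the same comparisons had 7, 11, 5, 9, 20 and 0. With each library centred, DkkMo against scrMo under stress had 1 and Combination against DRB 0; centring moved stress against log phase in NT cultures by 0.16; 8 genes were lower and 1 higher in the centred interaction, and Mmp11 (scrMo against NT, log phase) and Mmp14 (DkkMo against scrMo, log phase) lost their call. With only the compared groups in the model Combination against DRB had 2, neither of them Timp2. Without the fold threshold the counts were 21 and 12 for DkkMo against scrMo, 21 and 23 for scrMo against NT, 10 and 20 for DkkMo against NT (log phase and stress), 30 and 32 for stress against log phase with scrMo and DkkMo, and 18 for the interaction.

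With the replicate number as a block, the counts were 5 and 2 for DkkMo against scrMo, 8 for scrMo against NT and 1 for DkkMo against NT in log phase, 10 and 18 for stress against log phase with scrMo and DkkMo, and 9 for the interaction, so the block changed no count. In deviations from group means, same-numbered libraries of DkkMo and scrMo in log phase correlated at −0.0487 to 0.624. Their mean was 0.382, against −0.180 for differently numbered libraries. Under stress the range was −0.0586 to 0.00516, with means of −0.0263 and 0.0130. Pairing by number was not taken as given, and the main fit left it out. The block could not be used with Stress NT, where 2 libraries share a number; averaging these gave 3 for scrMo and 2 for DkkMo against NT (Adamtsl3 lost), and 23 for stress against log phase. Genes with few reads, such as Adamts9 in log phase, limit what can be detected.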
